A study of Mus musculus with 60 samples.

Results

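The genes described here make the proteins with which a muscle cell releases calcium, takes it up again and buffers it. They are Cacna1s, Ryr1 and Trdn of the release complex, the luminal buffers Casq1 and Casq2, the uptake pumps Atp2a1 and Atp2a2, the pump regulators Pln and Sln, and the cytosolic buffer Pvalb. Members were found by the symbol in the array annotation, or by the current symbol of its Entrez identifier. This gave 15 distinct probes for 9 of the 10 genes, of 21694 probes for 15092 genes in all. Ryr1 had 7 probes, called Ryr1-A to Ryr1-C on array part I and Ryr1-D to Ryr1-G on array part II. The other 8 genes had 1 probe each, on part II for Trdn and Sln and on part I for the rest. Cacna1s, the voltage sensor, had no probe under this rule and was not analysed here.

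In skeletal muscle, a voltage sensor in the surface membrane opens the ryanodine receptor of the sarcoplasmic reticulum, and calcium flows from that store to the contractile filaments. Calsequestrin holds calcium inside the store, triadin ties calsequestrin to the release channel, and the SERCA pumps return calcium to the store. Phospholamban and sarcolipin are small membrane peptides that restrain these pumps, and parvalbumin binds calcium in the cytosol of fast-twitch fibres.

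Total RNA of 5 mouse cell lines was compared on spotted 2-colour arrays. IM2 was not transfected. Wild-type pabpn1 was carried by WTA, labelled high for its level, and by WTD, labelled low. Mutant pabpn1 was carried by D7E (high) and by D7F (low). Pabpn1 makes a nuclear protein that controls the length of poly(A) tails. The disease named in the labels is oculopharyngeal muscular dystrophy (OPMD), which arises from a lengthened alanine run in this protein. They give neither the mutation carried by D7E and D7F nor the tissue from which the lines came. Each genotype and level was 1 line, so that a difference between genotypes or levels cannot be told apart from a difference between lines. Every line was grown as 3 cultures, and the RNA of each culture was hybridised with both dye orientations on both array parts against 1 common IM2 reference, which made 60 arrays. Values are given as log2 of culture relative to reference, taking base 10 for the deposited log ratios. Every size and fold below depends on that reading, whereas signs, ranks and calls do not. In such cultures, fewer cells of a type and less RNA per cell cannot be told apart.

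A probe was tested when both dye orientations gave a value inside the deposited limits in at least 2 cultures of every line. This held for 9710 probes, among them 11 of the 15 member probes, which stand for 8 genes. Pln and the probes Ryr1-E, Ryr1-F and Ryr1-G were not tested, because they were measured on only 18, 17, 18 and 16 of the 30 arrays of their part. Calls are adjusted p-values under 0.05 from limma with Benjamini-Hochberg adjustment over all tested probes. Nothing in the labels says that the cultures were independent beyond their numbers, and the p-values measure the spread between these cultures. Pabpn1 was higher than in IM2 in each transfected line, by 2.37 (SE 0.14) in WTA, by 1.61 and 1.79 in WTD and D7E, and by 1.09 in D7F (limma, adjusted p = 3.76e-06, 7.73e-05, 7.97e-05 and 0.00122). Of 60 arrays, 3 on part I and 6 on part II had at least 20% of values at a limit or under 70% filled. These arrays are called poor below, and 5 of them carried IM2 cultures.

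The 4 transfected lines shared a rise in triadin. Against IM2, their mean was higher for Trdn, Atp2a2 and Casq2 and lower for no member. These 3 of 11 member probes stand beside 6.41% of all tested probes that were higher in this comparison, 8.84% that were lower and 15.2% that passed in either direction. The median difference was 0.27 over the 11 member probes and 0.03 over all tested probes.

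**Figure D1:**
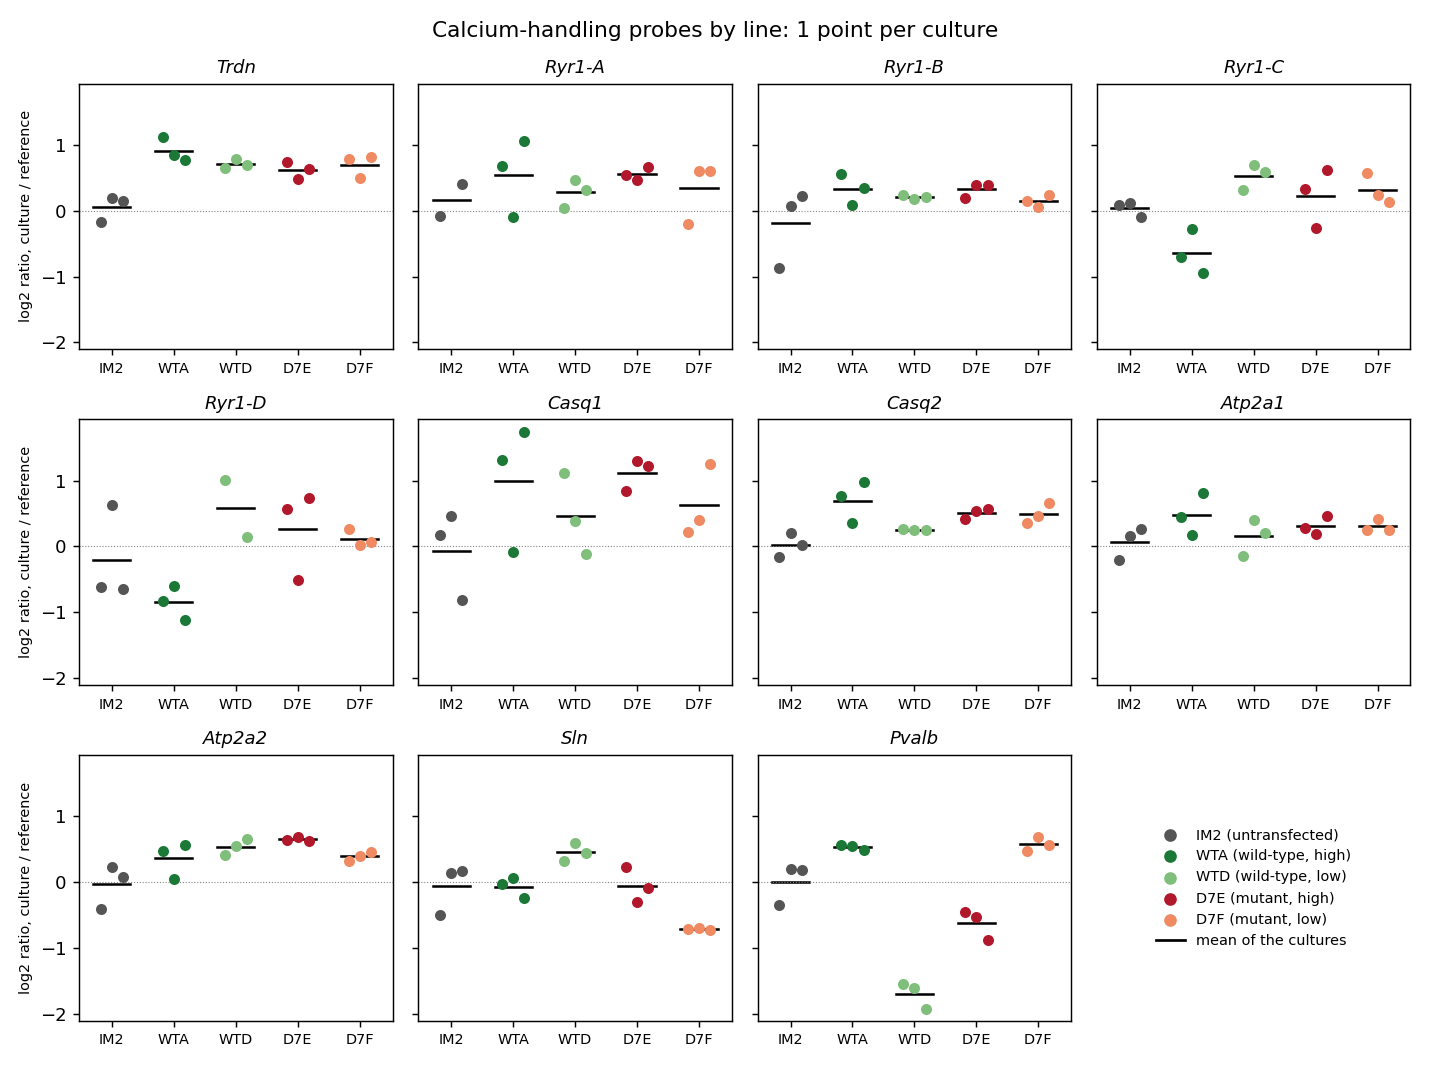
Log2 ratio of culture over reference (vertical axis) in the 5 lines (horizontal axis) for the 11 tested member probes; each point is 1 culture and each bar the mean of the cultures. All 12 transfected cultures lie above all IM2 cultures for Trdn and Casq2, while Pvalb lies above IM2 in WTA and D7F and below it in D7E and WTD.

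Trdn encodes triadin, which sits in the reticulum membrane beside the release channel. Its log2 ratios were -0.18, 0.19 and 0.15 in the IM2 cultures 1 to 3. They were 1.11, 0.84 and 0.76 in WTA and 0.65, 0.78 and 0.69 in WTD. In D7E they were 0.74, 0.48 and 0.63, and in D7F 0.79, 0.49 and 0.81. All 12 transfected cultures lay above the highest IM2 culture, and a separation in either direction was seen for 11.5% of all tested probes. The mean of the transfected lines exceeded IM2 by 0.68 (SE 0.12, adjusted p = 0.00271, limma), which is 1.60-fold. The call was kept in 27 of 28 alternatives and was lost with the arrays that carried the culture in Cy3 alone (adjusted p = 0.0554).

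Each line taken alone also had more Trdn than IM2. The difference was 0.85 in WTA (SE 0.15, limma adjusted p = 0.00352). It was 0.65 for WTD, 0.57 for D7E and 0.64 for D7F (adjusted p = 0.0229, 0.029 and 0.0301). These 4 comparisons share the IM2 cultures. No pair of transfected lines differed in Trdn past the threshold. The largest such difference was -0.29 (SE 0.15) between D7E and WTA, with an adjusted p of 0.424 by limma. Leaving out IM2 culture 1 ended the call in WTD, D7E and D7F (adjusted p = 0.0672, 0.0923 and 0.103). The WTD call was also lost without WTD culture 2 or 3 (0.0712 and 0.0632), and the D7E call without D7E culture 1 or 3 (0.0916 and 0.0702). The D7F call was lost without D7F culture 1 or 3 (0.0928 and 0.0885). The WTA call was kept without any single culture. Leaving out the poor arrays, however, ended all 4 calls, with limma adjusted p-values from 0.0718 (WTA) to 0.131 (D7F). The WTA call was also lost with Cy5 arrays alone (0.0503) and with only WTA and IM2 fitted (0.0978).

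Of the ryanodine receptor Ryr1, the release channel itself, 4 probes were tested, and they did not give 1 pattern. In WTA, Ryr1-A and Ryr1-B differed from IM2 by 0.39 (SE 0.33) and 0.52 (SE 0.23), and Ryr1-C and Ryr1-D by -0.68 (SE 0.23) and -0.64 (SE 0.38). None of these passed the threshold (limma, adjusted p = 0.495, 0.17, 0.0738 and 0.312), although Ryr1-C did without WTA culture 2 or D7E culture 2 (adjusted p = 0.0295 and 0.0367). D7E culture 2 is not part of that difference, which stayed -0.68. Its absence changed only the shared spread and the set of tested probes. The Ryr1-C ratios were -0.70, -0.29 and -0.95 in the WTA cultures and 0.32, 0.69 and 0.58 in the WTD cultures. They were 0.08, 0.11 and -0.09 in IM2, 0.33, -0.26 and 0.62 in D7E and 0.57, 0.24 and 0.12 in D7F. WTA was thus the lowest line for this probe, and its cultures overlapped with none of WTD, as was the case for 24.7% of all tested probes in that pair.

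Ryr1-C was the only Ryr1 probe with a call, and it was higher in WTD than in WTA by 1.17 (SE 0.23, adjusted p = 0.0207, limma). Of all tested probes, 1.77% passed in that comparison. The same pair differed by 1.43 (SE 0.43, adjusted p = 0.124) for Ryr1-D, by -0.27 (SE 0.30, adjusted p = 0.759) for Ryr1-A and by -0.12 (SE 0.23, adjusted p = 0.878) for Ryr1-B, none past the threshold of the limma fit. The Ryr1-C call was kept in 17 of 26 alternatives. Among those that ended it were the fits without WTA culture 1 or 3 (adjusted p = 0.0749 and 0.0568) and without WTD culture 2 or 3 (0.0992 and 0.0857).

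Without IM2 culture 2, Ryr1-D passed in WTD against both IM2 and WTA (adjusted p = 0.0483 and 0.0425). IM2 is not part of the difference between WTD and WTA, which stayed 1.43, and only the shared spread and tested set changed. Without IM2 culture 3, Ryr1-B passed in the mean of the transfected lines (0.65, adjusted p = 0.0467). The call for Ryr1-C against WTA was gained for D7F without WTA culture 2 (0.96 over all cultures, and 1.14 with an adjusted p of 0.049 then) and for D7E without D7E culture 2 (0.87 over all cultures, and 1.12 with an adjusted p of 0.0433 then). Ryr1-D carried a larger dye difference than any other member probe. Its ratio was higher with the culture in Cy3 than in Cy5 in 14 of 14 cultures with both values, on average by 2.68 ± 0.64 (SD). The means were -0.34 ± 0.47 for Ryr1-A, 0.16 ± 0.24 for Ryr1-B and 0.20 ± 0.31 for Ryr1-C. Smaller dye differences occurred in other members, as in Sln (-0.30 ± 0.28), where Cy3 was higher in only 2 of 15 cultures. Each culture's value is the mean of both orientations, and the part of the dye in the values of Ryr1-D was not tested.

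**Figure D2:**
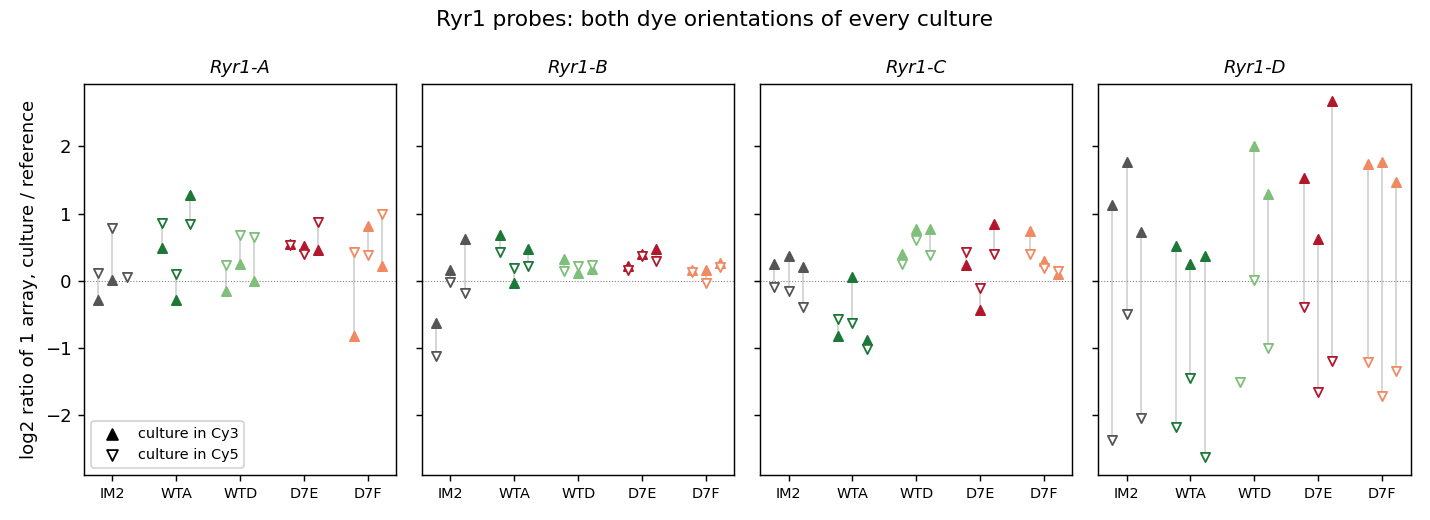
Log2 ratio of single arrays (vertical axis) for 4 Ryr1 probes in the 5 lines (horizontal axis), with upward triangles for arrays that carried the culture in Cy3, downward triangles for Cy5, and a grey line joining both arrays of a culture. Ryr1-D separates by dye in 14 of 14 cultures, and Ryr1-C is lowest in WTA, where Ryr1-A and Ryr1-B are not.

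Of the calsequestrins, Casq2, the form that predominates in cardiac muscle and is also made in slow fibres, was higher in the transfected lines. Its log2 ratios were -0.16, 0.20 and 0.02 in IM2, 0.76, 0.35 and 0.98 in WTA, and 0.26, 0.26 and 0.25 in WTD. They were 0.41, 0.54 and 0.57 in D7E and 0.36, 0.46 and 0.65 in D7F. All 12 transfected cultures lay above the IM2 cultures, those of WTD by the smallest margin. Such a separation, in either direction, was seen for 11.5% of all tested probes. The mean of the transfected lines exceeded IM2 by 0.47 (SE 0.12, adjusted p = 0.0239, limma), or 1.38-fold. Of the single lines, WTA passed with 0.68 (SE 0.15, adjusted p = 0.0153, limma). The differences were 0.23 in WTD, 0.49 in D7E and 0.47 in D7F, which did not pass (adjusted p = 0.406, 0.0608 and 0.112).

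The Casq2 call for the mean of the transfected lines was kept in 20 of 28 alternatives. Without IM2 culture 1 or IM2 culture 3 the adjusted p of that limma comparison was 0.11 and 0.0616. It was also lost with each array centred on its median (adjusted p = 0.0568) and without the arrays of poor quality (adjusted p = 0.137). The call in WTA was lost without WTA culture 1 (adjusted p = 0.0541). Conversely, leaving out WTA culture 2 brought D7E, D7F and the difference between WTD and WTA past the threshold (adjusted p = 0.0174, 0.0388 and 0.0315). D7E also passed without WTA culture 3 or IM2 culture 2 (adjusted p = 0.0305 and 0.0299). The WTA cultures are not part of the D7E and D7F differences from IM2, which stayed 0.49 and 0.47. Leaving them out changed only the shared spread and the set of tested probes for these.

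Casq1, the calsequestrin of fast fibres, had the largest standard error among the members. Its log2 ratios were 0.17, 0.46 and -0.81 in IM2, 1.32, -0.08 and 1.74 in WTA, and 1.12, 0.39 and -0.12 in WTD. They were 0.84, 1.29 and 1.22 in D7E and 0.22, 0.40 and 1.25 in D7F. Single cultures of every line but D7E lay within the range of IM2. The transfected lines differed from IM2 by 0.86 (SE 0.38, adjusted p = 0.152), and the largest difference of a single line was 1.18 in D7E (SE 0.49, adjusted p = 0.144), neither past the threshold of the limma fit. Without WTA culture 2, which had the lowest value of its line, both the mean of the transfected lines (1.00, adjusted p = 0.044) and WTA (1.59, adjusted p = 0.031) passed.

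The upstream sequence of Casq2 is shown because its annotated start region holds both kinds of motif searched for muscle factors, while that of Casq1 holds only the first. They are the E-box CANNTG, bound by myogenic factors such as MyoD, and the MEF2 box, bound by MEF2 factors. The 250 bases before the start, from RefSeq on GRCm38.p6, are chr3:102086165-102086414 on the plus strand, given 5′ to 3′ with E-boxes and the MEF2 box in capitals.
Casq2: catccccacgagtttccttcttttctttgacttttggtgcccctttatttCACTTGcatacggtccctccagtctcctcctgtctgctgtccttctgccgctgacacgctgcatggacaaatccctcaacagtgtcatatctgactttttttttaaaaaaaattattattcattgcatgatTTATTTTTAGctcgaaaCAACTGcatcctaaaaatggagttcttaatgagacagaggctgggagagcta
The E-boxes CACTTG and CAACTG begin 200 and 52 bases before the start, and the MEF2 box begins 69 bases before it. Among 32851 mouse start regions of the same length, searched on both strands, 66.2% hold an E-box and 2.92% a MEF2 box. A match of letters is a description and shows no binding. The table held start regions of 7 members, with 8 starts in all, and 6 of these starts had an E-box and 2 a MEF2 box. The narrower motif CAGCTG, which is itself an E-box, occurred at 3 of the 8 starts, those of Cacna1s, Casq1 and Atp2a1, and in 13.0% of all start regions. A CArG box, the site of serum response factor, was found at 0 of the 8 starts and in 1.47% of all start regions.

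Of the uptake pumps, Atp2a2, which encodes the SERCA2 pump of slow and cardiac muscle and of non-muscle cells, was higher in the transfected lines. Its log2 ratios were -0.40, 0.23 and 0.08 in IM2, 0.48, 0.05 and 0.57 in WTA, and 0.42, 0.55 and 0.66 in WTD. They were 0.64, 0.69 and 0.63 in D7E and 0.33, 0.41 and 0.46 in D7F. Of the 12 transfected cultures, 11 lay above the highest IM2 culture, the exception being WTA culture 2. The mean of the transfected lines exceeded IM2 by 0.52 (SE 0.13, adjusted p = 0.0212, limma), or 1.43-fold. D7E was the only single line past the threshold, with 0.68 (SE 0.17, adjusted p = 0.0205). WTD followed with 0.57, D7F with 0.43 and WTA with 0.40 (adjusted p = 0.0613, 0.175 and 0.151). The lines did not differ from one another past the threshold.

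Without IM2 culture 1, the call for Atp2a2 was lost in the mean of the transfected lines (0.34, adjusted p = 0.11) and in D7E (0.50, adjusted p = 0.0559), and without D7E culture 2 it was lost in D7E (adjusted p = 0.0567). WTD passed without IM2 culture 2, WTA culture 2 or WTA culture 3 (adjusted p = 0.021, 0.0296 and 0.047), and WTA passed without WTA culture 2 (adjusted p = 0.0376). The WTA cultures are not part of the WTD difference, which stayed 0.57, and only the shared spread and tested set changed. Both part I arrays of IM2 culture 1 were poor. Without the poor arrays, Atp2a2 lost its call in the mean of the lines (limma adjusted p = 0.15) and in D7E (0.096). Cy3 or Cy5 arrays alone ended the call in the mean too (0.077 and 0.0732). Atp2a1, the SERCA1 pump of fast fibres, gave no call. It lay between -0.20 and 0.27 in the IM2 cultures and between -0.14 and 0.81 in the transfected cultures, 6 of which exceeded the highest IM2 culture. Its difference between the transfected lines and IM2 was 0.24 (SE 0.15, adjusted p = 0.297, limma), and the largest in a single line was 0.41 in WTA (SE 0.19, adjusted p = 0.184).

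The pump regulator sarcolipin differed among the transfected lines. Sln ratios were -0.49, 0.14 and 0.18 in IM2, -0.03, 0.06 and -0.24 in WTA, and 0.33, 0.60 and 0.44 in WTD. They were 0.23, -0.30 and -0.09 in D7E and -0.71, -0.69 and -0.72 in D7F. By the mean of both dye orientations, the 3 D7F cultures were the lowest of all 15 and the 3 WTD cultures the highest. Both lay outside the range of IM2, as for 36.1% of all tested probes in WTD and 31.6% in D7F. The WTD ratios were 0.09, 0.22 and 0.12 with the culture in Cy3 and 0.57, 0.98 and 0.76 in Cy5. In Cy3, D7E culture 1 (0.14) lay above WTD cultures 1 and 3. D7F was lower than WTD by a log2 difference of -1.17 (SE 0.19, adjusted p = 0.0134, limma), or 2.24-fold. Of all tested probes, 0.453% passed in that pair, and 18% had cultures that did not overlap. Against IM2, D7F differed by -0.65 (SE 0.19, adjusted p = 0.0746) and WTD by 0.52 (SE 0.19, adjusted p = 0.114), neither past the threshold, although D7F passed without IM2 culture 1 (-0.86, adjusted p = 0.0163).

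The call between D7F and WTD was lost without WTD culture 2 or 3 (adjusted p = 0.0774 and 0.0506) and without D7F culture 2 or 3 (adjusted p = 0.0638 and 0.0524). With Cy3 arrays alone, this Sln call was lost as well (-0.88, limma adjusted p = 0.425). Phospholamban, the other regulator, gave no testable value. Of the 30 arrays, 18 measured Pln inside the limits, 5 were at a limit and 7 were empty. Both dye orientations were measured in 5 cultures, where the ratio was 0.21 in IM2 culture 2, -0.46 and 0.13 in WTD cultures 1 and 2, -0.48 in D7E culture 2 and 0.17 in D7F culture 3.

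Parvalbumin had the largest differences between lines of all members. Pvalb ratios were -0.35, 0.20 and 0.18 in the IM2 cultures and 0.56, 0.56 and 0.49 in the WTA cultures. In WTD they were -1.55, -1.60 and -1.92, in D7E -0.45, -0.52 and -0.88, and in D7F 0.47, 0.69 and 0.57. The 6 cultures of WTA and D7F lay above every IM2 culture and the 6 of WTD and D7E below. A single line separated from IM2 for 31.6% (D7F) to 37.3% (D7E) of all tested probes. WTD did not overlap with D7E, as for 16.3% of all tested probes in that pair. The line means were 0.58 ± 0.11 (SD, n = 3) in D7F, 0.54 ± 0.04 in WTA, 0.01 ± 0.31 in IM2, -0.62 ± 0.23 in D7E and -1.69 ± 0.20 in WTD. In this order, WTA and D7F differed by 0.04 (SE 0.17) and did not pass, nor did WTA and IM2, while IM2 and D7E as well as D7E and WTD did.

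Pvalb was lower in WTD than in IM2 by a log2 difference of -1.70 (SE 0.17, adjusted p = 0.000154, limma), or 3.25-fold, and in D7E by -0.63 (SE 0.17, adjusted p = 0.0307), or 1.54-fold. The call in WTD was kept in all 28 alternatives, with adjusted p-values of 1.12e-05 to 0.0168. That in D7E was kept in 19 of 28, and was lost without IM2 culture 2 or 3 (adjusted p = 0.0602 and 0.0847) and without D7E culture 2 or 3 (0.0524 and 0.104). WTA exceeded IM2 by 0.52 (adjusted p = 0.0644) and D7F by 0.57 (adjusted p = 0.0824), which did not pass. WTA passed without IM2 culture 2 (adjusted p = 0.0356) or D7E culture 3 (0.0488), and D7F without IM2 culture 2 (0.0421). D7E culture 3 is not part of the WTA difference, which stayed 0.52, and only the shared spread and tested set changed. Because the lines moved in opposite directions, the mean of the 4 transfected lines differed from IM2 by only -0.31 (SE 0.13, adjusted p = 0.139), and this passed without IM2 culture 1 (-0.49, adjusted p = 0.0341) and when arrays were both centred and scaled (-0.53, adjusted p = 0.0151).

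In the pairs of transfected lines, Pvalb passed the limma threshold in 5 of 6. It was lower in WTD than in WTA by a log2 difference of -2.22 (SE 0.17, adjusted p = 5.91e-05), or 4.67-fold, and higher in D7F than in WTD by 2.27 (adjusted p = 2.48e-05), or 4.81-fold. Both calls were kept in all 27 alternatives. D7E lay below WTA by -1.15 (adjusted p = 0.00651) and above WTD by 1.07 (adjusted p = 0.0216), and D7F lay above D7E by 1.19 (adjusted p = 0.0103). D7F and WTA differed by 0.04 (SE 0.17, adjusted p = 0.965). Over all tested probes, 1.64% passed between D7E and WTA, 0.227% between D7E and WTD, 0.227% between D7F and D7E and 0.288% between D7F and WTA.

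Single cultures mattered for the smaller of these differences. The call between D7E and WTD was lost without WTD culture 1, 2 or 3 (adjusted p = 0.0593, 0.0755 and 0.11) and without D7E culture 1 or 2 (0.0814 and 0.0993), with Pvalb differences of 0.96 to 1.14 in these fits. That between D7F and D7E was lost without D7F culture 2 (adjusted p = 0.0671). In all, the 6 pairs of transfected lines gave 7 calls among 66 member tests, 5 of them for Pvalb, 1 for Sln and 1 for Ryr1-C. Over all tested probes, 447 of 58260 tests passed in these pairs. Between D7F and WTA no member passed, and 3 of the 11 had an unadjusted p under 0.05 in the limma fit.

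The start region of Pvalb is shown because this gene separated the transfected lines most. The 250 bases before the first annotated start, from RefSeq on GRCm38.p6, are chr15:78206401-78206650 on the minus strand, given 5′ to 3′ with the MEF2 box in capitals.
Pvalb: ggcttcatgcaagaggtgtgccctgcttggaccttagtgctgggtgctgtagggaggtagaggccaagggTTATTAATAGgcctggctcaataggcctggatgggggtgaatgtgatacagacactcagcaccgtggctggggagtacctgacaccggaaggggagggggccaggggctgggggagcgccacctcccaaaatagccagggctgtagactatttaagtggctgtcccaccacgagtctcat
The MEF2 box TTATTAATAG begins 180 bases before the start, and no E-box was found in this window, which says only that those letters are not in it. The window before a second annotated start of Pvalb held the E-box CATGTG, which begins 111 bases before that start, and no MEF2 box. Pvalb and Casq2 were the members with a MEF2 box in the table. Their levels followed different orders across the lines, since Casq2 was above IM2 in all 12 transfected cultures and Pvalb in 6.

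**Figure D3:**
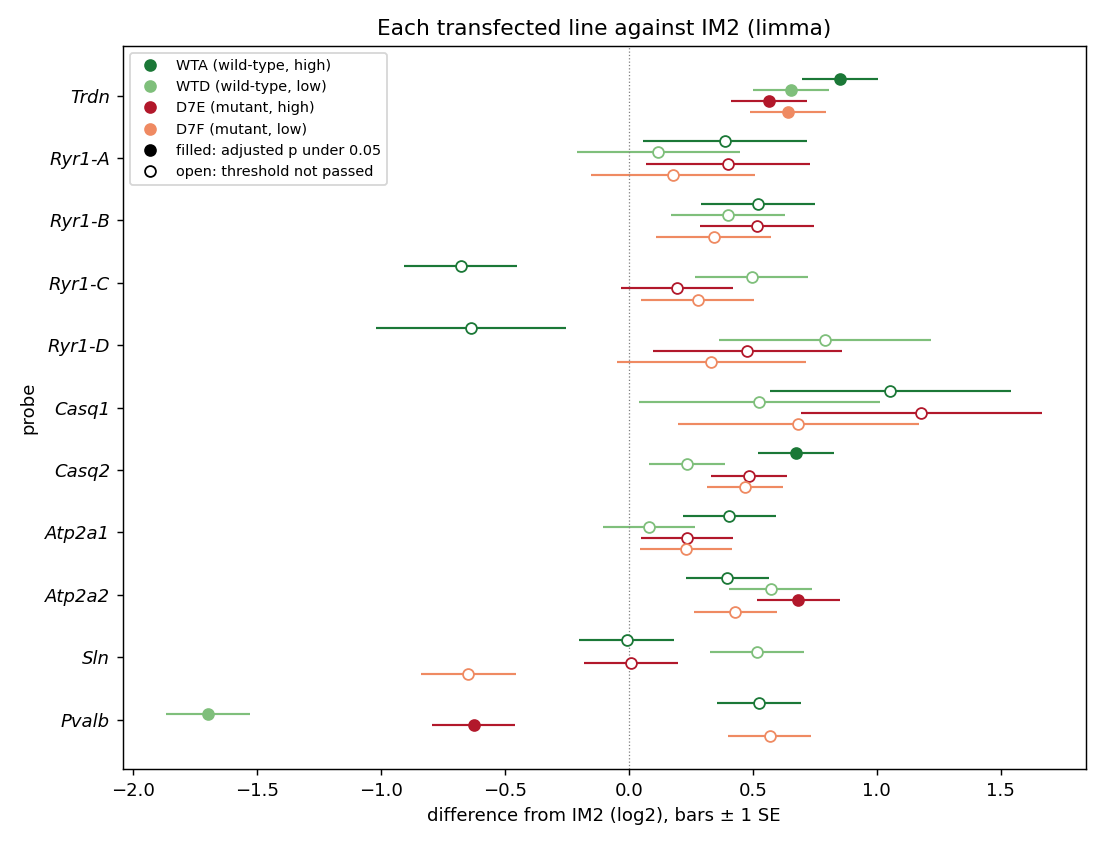
Difference of each transfected line from IM2 on the log2 scale (horizontal axis, with bars of 1 SE from limma) for the 11 tested member probes (vertical axis); filled points passed an adjusted p of 0.05 and open points did not. Trdn is filled in all 4 lines, and Pvalb is filled below 0 in WTD (-1.70) and D7E (-0.63) and open above 0 in WTA (0.52) and D7F (0.57).

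By line, the members that differed from IM2 were Trdn and Casq2 in WTA, Trdn and Pvalb in WTD, Trdn, Atp2a2 and Pvalb in D7E, and Trdn in D7F. These are 2, 2, 3 and 1 of 11 probes, beside 11.5%, 7.03%, 12.3% and 4.51% of all tested probes in the same comparisons. For a single line against IM2, the cultures did not overlap for 32.2% of all tested probes in WTA and 36.1% in WTD, and for 37.3% and 31.6% in D7E and D7F, so that separation of 3 cultures from 3 was common. Among neighbouring lines in the order of levels of the 11 probes, 3 steps passed the threshold, for Trdn between D7E and IM2 and for Pvalb between IM2 and D7E and between D7E and WTD. The other 41 steps did not.

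The mutant lines were compared with the wild-type lines and the high lines with the low lines. These comparisons may not separate mutation from level. Pabpn1 differed between mutant and wild-type lines by -0.55 (SE 0.10, limma adjusted p = 0.0551), which did not pass. It differed between high and low lines by 0.73 (adjusted p = 0.00576), and between D7E and WTD by 0.18 (adjusted p = 0.999). Mutant against wild-type and high against low gave no call among the members in the limma fit. Of the 11 probes, 2 and 3 had an unadjusted p under 0.05. Of all tested probes, 0.196% and 0.381% passed. Pvalb was higher in the mutant lines by 0.56 (SE 0.12, adjusted p = 0.126) and in the high lines by 0.51 (SE 0.12, adjusted p = 0.125). Sln differed between mutant and wild-type lines by -0.57 (SE 0.13, adjusted p = 0.158), and Ryr1-C between high and low lines by -0.63 (SE 0.16, adjusted p = 0.172). These values did not pass, but without IM2 culture 1, which changes the shared spread and the set of tested probes, Pvalb passed in both (adjusted p = 0.0346 and 0.0382) and Sln in the first (0.0406). With the arrays centred and scaled, Pvalb differed by 0.996 between mutant and wild-type and by 0.76 between high and low (adjusted p = 0.00171 and 0.0127).

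For Pvalb and Sln, the difference between the high and the low line was not the same in the wild-type pair as in the mutant pair. With 1 line for each combination, this is a difference among 4 lines. It was tested as the interaction, WTD and D7E averaged, less the average of D7F and WTA, for which 2.37% of all tested probes and 2 of 11 member probes passed. Pvalb had an interaction of -1.71 (SE 0.12, adjusted p = 1.32e-05, limma), kept in all 27 alternatives, and the 6 cultures of WTD and D7E did not overlap with the 6 of WTA and D7F, as for 2.92% of all tested probes. The high line exceeded the low line in the wild-type pair and lay below it in the mutant pair.

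For Sln the interaction was 0.59 (SE 0.13, adjusted p = 0.0385, limma), with overlapping cultures, and it was kept in 12 of 27 alternatives. Leaving out WTA culture 1, WTD culture 2, WTD culture 3, D7E culture 1, D7E culture 3, D7F culture 1 or D7F culture 2 ended the call (adjusted p = 0.0577, 0.088, 0.0715, 0.0775, 0.064, 0.0801 and 0.0848). Treating the line as a random block ended it too, at an adjusted p of 0.111. For Ryr1-C it was 0.54 (SE 0.16, adjusted p = 0.0965), which did not pass. It passed without D7E culture 2 (0.67, adjusted p = 0.0441) and with only the probes measured in all 15 cultures (adjusted p = 0.0481).

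Of the fast-fibre markers, 0 of 7 tested probes passed for the interaction in the limma fit and 1 had an unadjusted p under 0.05, with a median of -0.02 for the list and -0.02 for all tested probes. Their mean over the list lay between 0.29 and 0.34 in the WTA cultures, 0.09 and 0.44 in WTD, 0.24 and 0.34 in D7E and 0.34 and 0.48 in D7F. In the skeletal muscle list, 1 of 19 probes passed, that of the myogenic transcription factor Myf6, named here after its values were seen, with an interaction of -0.69 (SE 0.09, adjusted p = 0.00147, limma). The median of that list was 0.00. Myf6 was higher in the transfected lines than in IM2 (0.54, adjusted p = 0.00384), where Pvalb differed by -0.31 and did not pass. Acta2, a smooth muscle actin, had an interaction of 0.63 (SE 0.14, adjusted p = 0.0308), the only call among 4 smooth muscle probes. Their part in the Pvalb and Sln differences was not tested.

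Some markers of muscle cells were higher in the comparison in which Trdn, Casq2 and Atp2a2 were, and some of fibroblasts and of dividing cells were lower. Between the transfected lines and IM2, 9 of 19 skeletal muscle probes, 4 of 7 fast-fibre probes, 3 of 6 slow-fibre probes and 1 of 8 cardiac probes were higher and none of them was lower, beside 6.41% of all tested probes that were higher and 8.84% that were lower. These lists overlap, and the calls of Tnni2, Tnnt3 and Pygm count in both the skeletal muscle and the fast-fibre list. Of the 4 smooth muscle probes none passed in the limma fit, and 2 had an unadjusted p under 0.05. Of 6 fibroblast probes 3 were lower, those of the collagens Col1a1, Col1a2 and Col3a1, and of 6 probes of dividing cells 3 were lower, those of Rrm2, Cdk1 and Mcm5. Means were taken over the probes measured in all 15 cultures. These were 17 of 19 for skeletal muscle and 4 of 6 for fibroblasts, the latter with the 3 collagens among them. The skeletal muscle mean lay between -0.21 and 0.06 in the IM2 cultures and between 0.31 and 0.70 in the transfected cultures. The fibroblast mean lay between 0.04 and 0.20 in IM2 and between -1.21 and -0.56 in the transfected cultures.

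The count of skeletal muscle probes fell to 4 without IM2 culture 1 and to 5 without IM2 culture 3, and that of dividing cells to 1 without IM2 culture 1 or D7E culture 1. The processing moved the skeletal count further, to 1 with the limit values kept or either dye orientation enough, to 2 without the poor arrays, to 3 with arrays centred and scaled, with the line as a random block or with Cy3 or Cy5 arrays alone, to 4 with arrays centred and to 5 with the IM2 arrays turned. It was 15 against the reference with the IM2 arrays left out, where 4766 of 12046 tested probes passed over all. The main fit passed 1480 of 9710 probes. This was 814 of 7968 without IM2 culture 1, 1039 of 12932 with limit values kept and 982 of 18243 with either dye enough. It was 674 of 11726 without the poor arrays, 959 of 9710 with the random block and 1794 of 9710 with the IM2 arrays turned. The count of dividing-cell probes was 1 of 9 with the limit values kept and 1 of 7 without the poor arrays. Against the reference it was 5 of 7, and that of fibroblasts was 6 of 7. Ratios against a common reference cannot show whether a marker is absent. The part of these shifts in the rise of Trdn, Casq2 and Atp2a2 was not tested.

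Other genes of muscle calcium handling were taken from a list of 75 genes, of which 42 could be tested with 46 probes. Between the transfected lines and IM2, 8 genes were higher and 5 lower in the limma fit, with a median of 0.32 over the list against 0.03 over all tested probes. Of all tested probes, 6.41% were higher and 8.84% lower, and the share of lower probes in the list was near the latter. In the triad, where the surface membrane meets the reticulum, 5 of 14 tested genes were higher and 1 was lower. Sypl2, or mitsugumin 29, a protein of the triad membranes, was higher by 1.05 (SE 0.18, adjusted p = 0.00377). Jsrp1 (0.50), which binds the voltage sensor and calsequestrin, was also higher, as were Tmem38a (0.42) and Tmem38b (0.55), the cation channels that balance charge during release, and Cav3 (0.35), the caveolin of muscle. Asph, whose gene also makes the triadin-like protein junctin, was lower by a log2 difference of -0.63 (SE 0.11, adjusted p = 0.00362), and the labels do not say which of its products the probe reads.

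Ryr3, a ryanodine receptor of developing muscle, was higher in every transfected line. Its first probe had a mean ratio of 0.01 ± 0.27 (SD, n = 3) in IM2. The means were 0.72 ± 0.18 for WTA, 0.99 ± 0.20 for WTD, 1.31 ± 0.10 for D7E and 1.06 ± 0.24 for D7F. The differences from IM2 were 0.71, 0.98, 1.30 and 1.05 (SE 0.17, limma, adjusted p = 0.0187, 0.00588, 0.000816 and 0.00462), and their average differed from IM2 by 1.01 (SE 0.13, adjusted p = 0.000575). A second Ryr3 probe differed by 0.91 (SE 0.58, adjusted p = 0.307) between the transfected lines and IM2 and did not pass. With both probes averaged, the difference did not pass either (adjusted p = 0.0999).

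Among the other groups, the reticulum proteins Calr, a calcium-binding chaperone, and Calu, a calcium-binding protein of the secretory pathway, were lower by log2 differences of -0.997 (SE 0.18, adjusted p = 0.00453) and -0.59 (SE 0.12, adjusted p = 0.00875). The calmodulin genes Calm2 (-0.46) and Calm3 (-0.37) were lower, and the kinase gene Camk2b (1.22, adjusted p = 0.0165) and the mitochondrial channel gene Vdac2 (0.30, adjusted p = 0.047) were higher. A second Camk2b probe differed by only 0.07 (SE 0.14, adjusted p = 0.773). Of the other pumps and exchangers, 0 of 5 probes passed in the limma fit and 0 had an unadjusted p under 0.05. The calls of Ryr3, Asph, Calr and Calu were kept in each fit that left out 1 of the 15 cultures. That of Sypl2 was kept in each such fit that tested it, which those without D7F culture 2 or 3 did not, and was lost with the limit values kept (adjusted p = 0.129). The Camk2b call was lost with the IM2 arrays turned (0.24, adjusted p = 0.607), with Cy3 or Cy5 arrays alone (0.0627 and 0.0802) and without the poor arrays (0.0732). With Cy5 arrays alone the Calr call was lost too (limma adjusted p = 0.0603). That of Calu was lost with Cy5 arrays alone and without the poor arrays, with adjusted p-values of up to 0.144.

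With the limit values kept, 3 of 56 probes of this list were higher and 4 lower, beside 1039 of 12932 tested probes that passed over all. With either dye orientation enough 3 of 69 were higher and 3 lower (982 of 18243 over all). Without the poor arrays, 2 of 47 were higher and 3 lower (674 of 11726). With the line as a random block, 5 of 46 were higher and 3 lower (959 of 9710). With Cy3 arrays alone, 4 of 57 were higher and 5 lower (837 of 12866), and with Cy5 arrays alone, 5 of 58 and 1 (701 of 12859). The median was 0.06 without the poor arrays and 0.12 with either dye orientation enough. Against the reference, with the IM2 arrays left out, 21 of 54 probes were higher and 7 lower, beside 4766 of 12046 tested probes over all. Without IM2 culture 1, 2 genes of this list were higher and 4 lower, and 814 of 7968 tested probes passed over all. The absence of IM2 culture 1 ended the calls of Camk2b, Tmem38a, Tmem38b and Cav3 (adjusted p = 0.0624, 0.0845, 0.0984 and 0.106). Without IM2 culture 3, 5 genes were higher, beside 1017 of 8414 tested probes that passed over all. The calls of Tmem38b and Calm3 were lost there (adjusted p = 0.108 and 0.0812). The calls of Jsrp1, Vdac2 and Calm2 were lost without any of 8, 7 and 9 single cultures, with adjusted p-values of up to 0.131, 0.129 and 0.231. Among the transfected lines, no gene of this list passed in any pair, in mutant against wild-type, in high against low or in the interaction, where 1 to 5 of 46 probes had an unadjusted p under 0.05 in the limma fit.

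**Figure D4:**
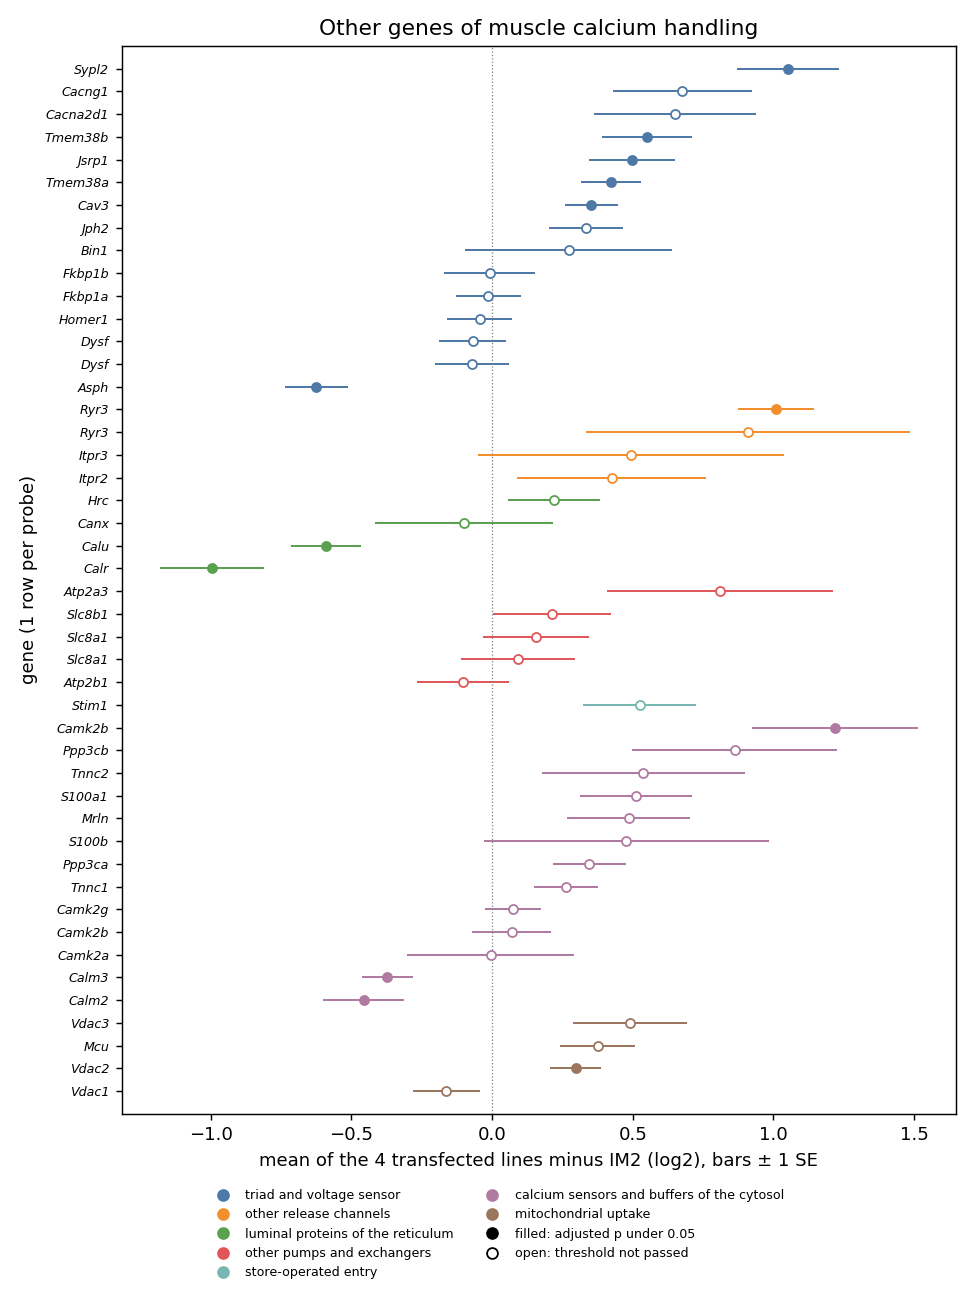
Mean of the 4 transfected lines minus IM2 on the log2 scale (horizontal axis, bars of 1 SE) for the 46 tested probes of other calcium-handling genes (vertical axis), coloured by group; filled points passed an adjusted p of 0.05 in limma. Sypl2 (1.05) and Ryr3 (1.01) stand to the right, and Calr (-0.997), Asph (-0.63) and Calu (-0.59) to the left.

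For each member with a call against IM2 or within a pair, the 3 probes of its array part most alike over the 15 cultures were found by Pearson's r, among 2871 probes on part I (2870 for Ryr1-C) and 2156 on part II measured in all cultures. Nearest to Casq2 was Actn3, an actin crosslinker of fast fibres, with r = 0.956, followed by Mknk2 (0.948) and Acsl4 (0.941). Nearest to Trdn were Cntn1 (0.913), Rmdn1 (0.893) and Fam241a (0.878). Atp2a2 was nearest to Rabep1 (0.945), Dusp10 (0.927) and Nedd4 (0.921), and Pvalb to Gem (0.859), Fas (0.823) and Scd2 (0.796). Sln was nearest to Zc2hc1a (0.882), Nmrk2 (0.858) and Zbtb11os1 (0.844), and Ryr1-C to Pcbd1 (0.913), Zp3 (0.846) and Gja5 (0.811). These values are a description, since the probes share arrays, reference and cultures, and the best of all those compared were picked.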

How the data were processed

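Total RNA of 15 cultures of 5 lines was measured on 60 arrays. The authors deposited log ratios without a stated unit; they were taken as log10, since no deposited value passes -2 or 2, a ratio of 100 in base 10, and were multiplied by 3.32 to give log2. How the arrays were scanned, corrected and normalised is not given in the sources used here. Precision is limited by how many arrays there are. Groups were read from the titles and dyes from the channel sources, also for WTA culture 3 on part I, whose title gives the other dye. For 1 part I array of D7F culture 1 the description calls the level high, and the title was used. Ratios were read as culture over IM2 reference, since Pabpn1 was positive in the transfected lines on part I. Part II and the IM2 arrays have no such marker.

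Rows with identical values were collapsed, control probes left out, and symbols updated by Entrez identifier through the RefSeq gene table of GRCm38.p6, used for names only. Values at a limit were treated as not measured, and the 2 dye orientations of a culture were averaged. Each part was fitted alone with limma 3.58.1 in R 4.3.3 (lmFit and eBayes) over all 5 lines, with Benjamini-Hochberg adjustment over 9710 probes (4650 on part I and 5060 on part II) for each comparison. The fits were tested on simulated data. A p that misses the threshold does not show that values were alike. The members and lists were chosen with earlier results of these data known. Named were all members, the called genes of the calcium-handling list, examples from the marker lists, Pabpn1 and the 3 probes most alike to each called member. Up to 28 alternatives were run per comparison, and start-region sequences came from RefSeq on GRCm38.p6, which held 7 of the 10 members.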

Additional observations from a re-analysis of the deposited data

Results flagged for a closer look

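The members below differed between transfected lines by a test of the difference itself. Pvalb had an interaction of genotype and level of -1.71 on the log2 scale (limma, adjusted p = 1.32e-05), and Sln one of 0.59 (adjusted p = 0.0385). Between single lines, Pvalb differed by -2.22 between WTD and WTA (adjusted p = 5.91e-05), by -1.15 between D7E and WTA (0.00651), by 1.07 between D7E and WTD (0.0216), by 2.27 between D7F and WTD (2.48e-05) and by 1.19 between D7F and D7E (0.0103). Sln differed by -1.17 between D7F and WTD (adjusted p = 0.0134) and Ryr1-C by 1.17 between WTD and WTA (0.0207). Each line is 1 line of its genotype and level, and a difference between lines cannot be told apart from a difference due to either.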

How the results depend on the processing

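Unless all tested probes are named, every value below counts calls among the member probes. No called difference changed sign under any alternative. The number of calls over all tested probes moved as well. For the mean of the transfected lines, 1480 of 9710 passed in the main fit. This was 1039 of 12932 with the limit values kept and 982 of 18243 with either dye orientation enough. It was 674 of 11726 without the poor arrays, 837 of 12866 with Cy3 arrays alone and 701 of 12859 with Cy5 arrays alone. With the limit values kept, WTD, D7E and D7F against IM2 gave 1, 1 and 0 calls, the pairs of transfected lines 4 and the interaction 1. With the arrays centred and scaled, WTA against IM2 gave 1, as did the interaction, high against low, and mutant against wild-type. With either dye orientation enough, the mean of the transfected lines gave 1, WTD 1, D7E 0, D7F 0, the pairs 4 and the interaction 1. With probes measured in all 15 cultures, WTA gave 4, D7F 3 and mutant against wild-type 1 of 9 member probes. Over all 5531 tested probes, 1212, 566 and 34 passed there. With the IM2 arrays turned D7F gave 2, beside 708 of 9710 over all tested probes. Against the reference, with the IM2 arrays left out, the mean of the lines gave 8, WTA 8, WTD 4, D7E 6 and D7F 5. That test leaves out the spread of IM2, and calls were more frequent over all probes too. Of all 12046 tested probes, 4766, 2291, 1581, 2212 and 1315 passed there. Cy3 arrays alone gave 0 for the mean of the lines, 1 for WTA, 1 for WTD, 0 for D7E, 0 for D7F, 3 for the pairs and 1 for the interaction. Cy5 arrays alone gave 1, 1, 0 and 0 for WTA, WTD, D7E and D7F, 4 for the pairs and 1 for the interaction. Without the poor arrays, the mean of the lines gave 1, WTA 0, WTD 1, D7E 1, D7F 0 and the interaction 1. With 2 lines alone in the fit, WTA gave 0, WTD 1, D7E 0, D7F 0 and the pairs 3. Over all tested probes, 14, 227, 344 and 83 of 9710 passed for these lines and 84 of 58260 tests for the pairs. With the line as a random block the interaction gave 1. The fit with the culture number as a replicate block also gave 1 for the interaction, where Sln was lost (adjusted p = 0.065), and 6 for the pairs, where Ryr1-C was lost between WTD and WTA (adjusted p = 0.051). It left the counts of the other comparisons as they were. Deviations of same-numbered cultures had a median correlation of -0.0049 on part I and 0.0774 on part II, with 8 and 11 of 30 above 0.1. For cultures of other numbers the medians were 0.0191 and -0.0168. With 3 cultures a line, these values cannot show whether the numbers pair the samples. Leaving out 1 culture at a time gave 2 to 4 calls for the mean of the lines. It gave 1 to 5 calls in WTA, 1 to 4 in WTD, 1 to 4 in D7E and 0 to 2 in D7F, 4 to 9 for the pairs, 0 to 1 for high against low, 0 to 2 for mutant against wild-type and 1 to 3 for the interaction. Where a call was lost the cause was not tested.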

Other observations

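Single cultures took the same place for several members. Among the WTA cultures, culture 2 had the lowest value for 6 of the 11 tested member probes and culture 3 for the other 5, so that culture 1 was lowest for none. Among the IM2 cultures, culture 1 was lowest for 7 of the 10 members measured in all 3 and culture 2 for none. Both part I arrays of IM2 culture 1 and its Cy3 array on part II were among the poor arrays. In WTA culture 2 the ratio of Casq1 was -0.08 against 1.32 and 1.74 in the other cultures of the line, and that of Ryr1-A was -0.10 against 0.67 and 1.06, whereas Ryr1-C was -0.29 there against -0.70 and -0.95.

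The Ryr1 probes that could not be tested gave few values with both dye orientations. Ryr1-E had 6 such cultures, Ryr1-F 6 and Ryr1-G 4. In WTD culture 2, Ryr1-F had a ratio of 0.84, and in D7E culture 2 Ryr1-E had 1.57, from arrays that read -0.13 and 3.26.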
